A study of Mus musculus with 27 samples.

Results

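Mouse morulae treated with SAHA were compared with Vehicle-treated morulae across every row of the deposited count table. The comparison has 3 SAHA libraries and 3 Vehicle libraries, grouped by their sample titles, out of 27 libraries in the series. Embryos of both groups carry the genotype label Wildtype, name no strain, and were cultured in KSOM medium, and treatment ran in vitro from embryonic day 2.5 (E2.5) until harvest as morulae at E2.75. SAHA was given at 500 nM and the labels do not name the solvent of Vehicle. Each library is polyadenylated RNA from a pool of 15 to 20 embryos, so differences between single embryos or blastomeres are averaged within a library. The series title concerns miR-203 and epigenetic modulation in early embryogenesis, and the same control group also serves the inhibitors TSA and A485.

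SAHA, suberoylanilide hydroxamic acid or vorinostat, is a hydroxamate that occupies the zinc-containing active site of class I and class II histone deacetylases (HDACs). These enzymes remove acetyl groups from lysines on histone tails and on other proteins, and they work inside corepressor complexes that are brought to genes by transcription factors. The morula is the stage at which blastomeres compact, gain apical and basal surfaces and begin to separate into outer cells, which form trophectoderm, and inner cells. Totipotent transcription of the 2-cell embryo, driven by DUX and by long terminal repeats of the endogenous retrovirus MERVL, is normally shut down well before this stage.

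Library totals were 8894471, 10543681 and 9428881 counts under SAHA and 10608196, 10960235 and 10458688 counts in Vehicle; values of single libraries are always given in the order of replicates 1, 2 and 3. Levels are in CPM, each library's counts scaled to its total and to edgeR's TMM factor, and fold changes are log2 of SAHA over Vehicle ± standard error. A gene is said to rise or fall when its Benjamini-Hochberg adjusted p from edgeR's quasi-likelihood test was under 0.05 over 18299 genes tested; these p-values measure the spread between pools, part of which may be technical. The 8 morula markers looked up, among them Pou5f1, Cdh1, Tead4, Krt8 and Gata3, had counts in all 6 libraries, as the labelled stage requires. Markers of cells that could come along with embryos were low: the summed level of 13 cumulus cell markers was 3.86, 9.26 and 3.84 CPM under SAHA and 5.62, 8.77 and 3.46 CPM in Vehicle, with Has2, Amh and Ptgs2 at 0 in all 6. The 11 blood markers summed to 43.8, 26.4 and 58.5 CPM under SAHA and 19.3, 11.9 and 10.4 CPM in Vehicle. That list's excess lay in Hba-a1, Hba-a2 and Cd74, while Hbb-bs and Itgam were at 0 in all 6 libraries; its part in the results below was not tested. Oviduct and stromal markers summed to 17.7, 11.4 and 14.5 CPM under SAHA and 25.6, 33.8 and 30.2 CPM in Vehicle, nearly all of it Pecam1, with Foxj1, Col1a2, Col3a1 and Lum at 0. Vehicle 3 stood apart from Vehicle 1 and 2, so results that rest on it are also given without it. In such bulk samples, fewer cells of a type and less RNA per cell cannot be told apart.

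The response was broad and reached further upwards than downwards. Of the 18299 genes, 3321 rose and 1900 fell when Vehicle 3 was left out (18.1% and 10.4% of those tested), beside 20.2% and 14% with all 6 libraries. With genes at 0 in 1 group set at their bound, the level that 3 counts over that group would give, 2235 of the 3695 genes that rose with all libraries changed at least 4-fold and 165 at least 64-fold. Of the 2566 that fell, 371 changed at least 4-fold and 3 at least 64-fold. The median log2 fold change on the same footing was 2.499 among risers and -1.08 among fallers, against 0.06 over all genes tested. A gene that is low in Vehicle entered the test only through a group where it was higher, so counts over lists of such genes cover the members that could be tested. The shares also depend on level: of 6579 genes at 10 to 100 CPM in the series' separate siControl libraries, 11.7% rose and 25.03% fell. Of 3435 genes at 0 to 1 CPM there, 41.8% rose and 0.90% fell. Of 6349 genes at 1 to 10 CPM, 20.3% rose and 5.95% fell. In 247 risers the mean level was under 1 CPM in Vehicle and at least 10 CPM under SAHA, and the mirror image, a fall to under 1 CPM against at least 10 CPM in Vehicle, was seen in 6 genes. A further contrast is that 351 risers had no count in any Vehicle library, whereas 14 fallers had none in any SAHA library.

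Over the genes called, the 3 SAHA libraries moved by similar amounts. These libraries also chose the genes, so some likeness is built in. Measured from the mean of Vehicle 1 and Vehicle 2, the risers' median shift was 1.43, 1.28 and 1.501 on a log2(CPM + 1) scale in SAHA 1, 2 and 3, and the fallers' was -0.997, -0.97 and -1.09. SAHA 2 was the lowest of its group for 53.9% of the risers. On the first principal component of the 12 libraries, SAHA 1, 2 and 3 lay at 96.03, 65.5 and 103, SAHA 2 being nearest to Vehicle. Among rising genes, 3123 (84.5%) still passed without Vehicle 3, and 2905 to 3138 passed when any other single library was left out. Among falling genes, 1871 (72.9%) passed without Vehicle 3, and 1715 to 1921 with another library left out. After thinning every library to the same depth, 15832 ± 157 genes had at least 10 counts under SAHA and 14075 ± 129.8 in Vehicle (SD, n = 3 each; exact permutation p = 0.1, 2-sided, the smallest that 3 against 3 libraries can give).

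**Figure D1:**
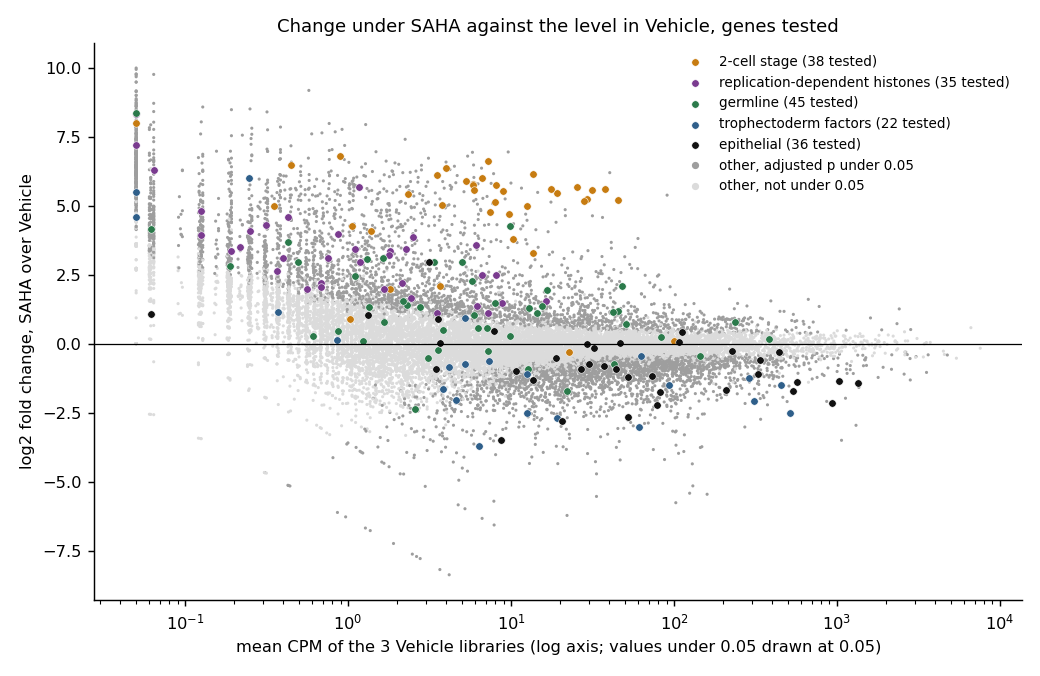
Each point is a gene; the x axis is its mean CPM in the 3 Vehicle libraries (log axis) and the y axis its log2 fold change, SAHA over Vehicle. Coloured points are tested members of 5 gene lists: 35 of 38 genes of the 2-cell stage and 32 of 35 replication-dependent histone genes rose, while 12 of 22 trophectoderm factors and 19 of 36 epithelial genes fell; fold changes of genes at 0 in Vehicle depend on the prior count and are no bound.

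The strongest group response was in transcripts of the 2-cell embryo. Of 38 such genes tested, 35 rose and none fell (20.2% of all genes rose), and the list's median log2 fold change was 5.44 (5.33 with the bound in place). Without Vehicle 3 the same number rose and the fitted median was 10.13, a value that depends on the prior count where genes are near 0 in Vehicle 1 and 2. The list has 42 genes, of which 40 are in the table. In 35 of the 38 every SAHA library lay above every Vehicle library, which was so for 28.7% of all genes tested. MERVL-int, the internal region of the retrovirus, had 4540.1, 2084 and 4707 CPM under SAHA, against 12.3, 14.2 and 246 CPM in Vehicle. SAHA 2 was the lowest of its group and Vehicle 3 the highest of the other, yet the groups did not overlap. Its log2 fold change was 5.38 ± 0.96 (edgeR adjusted p = 7.30e-04), and 8.19 without Vehicle 3. MERVL_2A-int, a second MERVL row, had 185, 83.8 and 175 CPM under SAHA, against 20.4, 20.1 and 26.2 CPM in Vehicle (log2 fold change 2.73 ± 0.31, edgeR adjusted p = 1.87e-05), and here Vehicle 3 lay close to the others.

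Duxf3, the mouse Dux gene whose product switches on 2-cell genes and MERVL, lies at chr10:58229979-58232675, minus strand in the GENCODE vM21 annotation of GRCm38. It had 3.18, 2.91 and 3.40 CPM under SAHA, against 0 CPM in each Vehicle library, at least 34.1-fold higher under SAHA when the floor is 3 counts over the Vehicle group (edgeR adjusted p = 6.64e-05). That floor is a chosen setting and no confidence limit, since 2 counts may be 1 read pair. A floor of more counts would lower this and every later value given as at least so many fold. Duxf3 was at 0 in Vehicle 3 as well. For MERVL-int Vehicle 3 held 6.51% of the SAHA mean, and at the low level of Duxf3 such a share may leave no count. Zscan4d, a zinc finger gene that marks 2-cell embryos and protects telomeres, had 1684, 1150.1 and 2135 CPM under SAHA, against 0.737, 0.362 and 134 CPM in Vehicle. It was near 0 in Vehicle 1 and 2, while Vehicle 3 reached a level still far under every SAHA library; the log2 fold change was 5.199 ± 1.34 (edgeR adjusted p = 0.00829) and 11.56 without Vehicle 3. Zfp352, a zinc finger gene switched on with MERVL, had 494, 147 and 545 CPM under SAHA, against 0, 0.542 and 37.1 CPM in Vehicle (log2 fold change 4.98 ± 1.19, edgeR adjusted p = 0.00522; 4.40 without Vehicle 1). Where the Vehicle libraries used hold 1 to 6 counts, about 3 read pairs, the ratio of summed levels is given in place of a fitted value, with an exact interval for counting error alone. Without Vehicle 3 that ratio was 1382 (95% counting interval 473 to 6704) for Zfp352.

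Several members stood far apart between the groups with Vehicle 3 in place. Arg2, the mitochondrial arginase, had 774, 775 and 1343 CPM under SAHA, against 7.65, 8.41 and 24.9 CPM in Vehicle (log2 fold change 6.14 ± 0.44, edgeR adjusted p = 4.75e-07; 6.94 without Vehicle 3). Ubtfl1, a relative of the nucleolar factor UBTF needed in preimplantation embryos, had 147, 87.5 and 167 CPM under SAHA, against 11.7, 14.1 and 15.2 CPM in Vehicle (log2 fold change 3.29 ± 0.27, edgeR adjusted p = 1.07e-06). Both were counted in all 6 libraries and SAHA 2 was not far from its group. Tmem92, a membrane protein gene of the 2-cell programme, had 340.3, 236 and 366 CPM under SAHA, against 1.47, 4.25 and 11.8 CPM in Vehicle (log2 fold change 5.75 ± 0.52, edgeR adjusted p = 2.59e-06; 6.80 without Vehicle 3). Nat8f2, an acetyltransferase-like gene, had 103, 68.6 and 129.9 CPM under SAHA, against 2.03, 0.904 and 4.04 CPM in Vehicle (log2 fold change 5.44 ± 0.40, edgeR adjusted p = 5.59e-07; 6.12 without Vehicle 3). Usp17la, a deubiquitinase, and Tcstv3, named for 2-cell-stage variable transcripts, had log2 fold changes of 5.78 ± 1.08 and 5.90 ± 0.96 (edgeR adjusted p = 0.00152 and 3.53e-04) with all libraries. Without Vehicle 3 the ratio of summed levels was 1691 (95% counting interval 468 to 13966) for Usp17la and 1119 (95% counting interval 383 to 5429) for Tcstv3. The 3 tested genes that did not pass were Rnf168, Patl2 and Tdpoz2; Rnf168, a ubiquitin ligase of the DNA damage response, had 20.2, 15.98 and 18.9 CPM under SAHA, against 17.5, 24.9 and 25.6 CPM in Vehicle (edgeR adjusted p = 0.369). Many of these genes come in near-identical copies, and how reads were shared among the copies is not given in the sources used here.

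**Figure D2:**
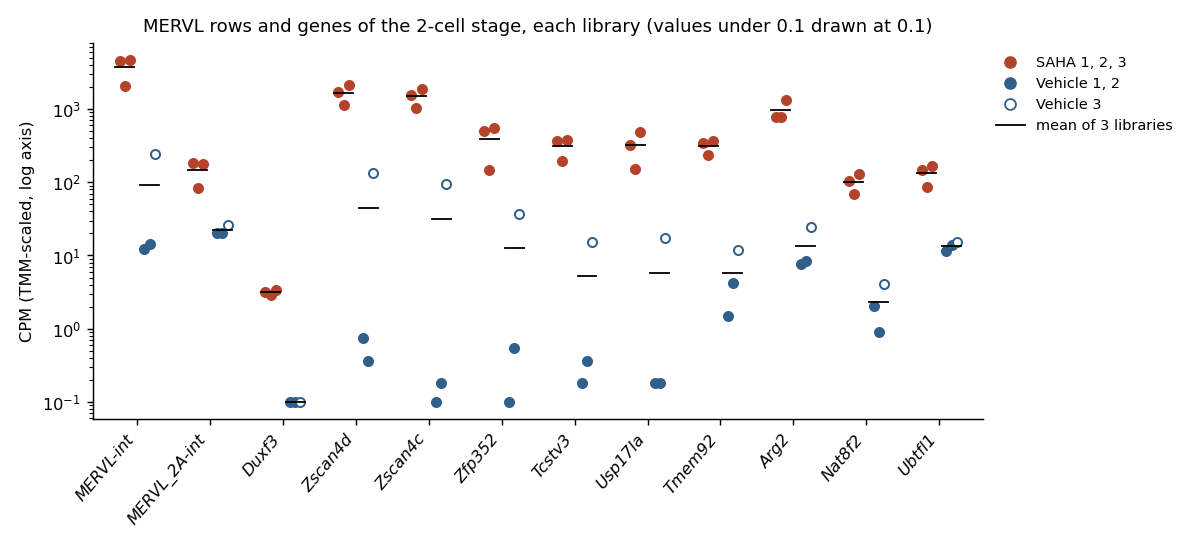
CPM (log axis) of MERVL-int, MERVL_2A-int and 10 genes of the 2-cell stage in each library; filled red circles are SAHA 1, 2 and 3, filled blue circles Vehicle 1 and 2, open circles Vehicle 3, and bars the mean of 3 libraries. Every SAHA value lies above every Vehicle value. Vehicle 3 stands above Vehicle 1 and 2 for Zscan4d, Zscan4c, Zfp352 and Usp17la. All Vehicle libraries are at 0 for Duxf3, which is low under SAHA too.

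The homeobox family Obox, which acts in the first wave of embryonic transcription, had fewer members called. With all libraries 2 of 6 tested members rose (Obox1 and Obox3), against 5 when Vehicle 3 was left out. With Obox pseudogenes counted in, 17 of 26 tested rose and none fell, and 24 rose without Vehicle 3. Over all genes tested 20.2% rose, and 18.1% without Vehicle 3. Obox3 had 48.8, 23.1 and 67.7 CPM under SAHA, against 0.368, 0.362 and 11.7 CPM in Vehicle (log2 fold change 3.49 ± 0.86, edgeR adjusted p = 0.00618; 6.98 without Vehicle 3). Obox6 had 61.1, 65.8 and 95.6 CPM under SAHA, against 18.3, 73.8 and 64.2 CPM in Vehicle (edgeR adjusted p = 0.366), where the groups overlapped. Of 8 tested genes on the Pramel list 2 rose, Pramef17 and Pramef8, beside 20.2% of all genes tested. The related Pramef25 and Pramef6, counted in the 2-cell list, rose as well. Pramef25 had 853, 403 and 858 CPM under SAHA, against 0.184, 0 and 21.6 CPM in Vehicle. Pramel7, which holds down DNA methylation in the inner cell mass by promoting UHRF1 breakdown, fell instead, with 54.2, 68.1 and 73.0 CPM under SAHA, against 175, 196 and 171 CPM in Vehicle (log2 fold change -1.47 ± 0.16, edgeR adjusted p = 1.13e-05). Its groups were well apart and alike within.

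Vehicle 3 stood apart from its replicates. On the first principal component of the 12 libraries, which took 63.4% of the variance, it lay at -57.7, beside 96.03, 65.5 and 103 for SAHA 1, 2 and 3 and -114 and -109 for Vehicle 1 and 2. Against both other Vehicle libraries, 123 genes were at least 10 times higher in Vehicle 3 at 5 CPM or more, beside 0 genes so placed in Vehicle 1 and 0 in Vehicle 2. Of these 123, 107 rose under SAHA and 0 fell (20.2% and 14% of all genes tested), a count that describes the set and tests nothing, since Vehicle values chose it. They include 22 of the listed 2-cell genes, and 70 are gene models without a given name. Over all of them Vehicle 3 held a median of 8.53% of the SAHA mean, and in 12 of the 16 not called it was above that mean. Among those that rose, it held a median of 7.30% of the SAHA mean (quartiles 5.23% and 12.2%). Outside this set its median shift from the mean of Vehicle 1 and 2 on the log2(CPM + 1) scale was 0.03 over the other 3588 risers and -0.03 over the fallers. Whether 1 or several embryos of that pool carry the signal cannot be told from a pooled library.

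**Figure D3:**
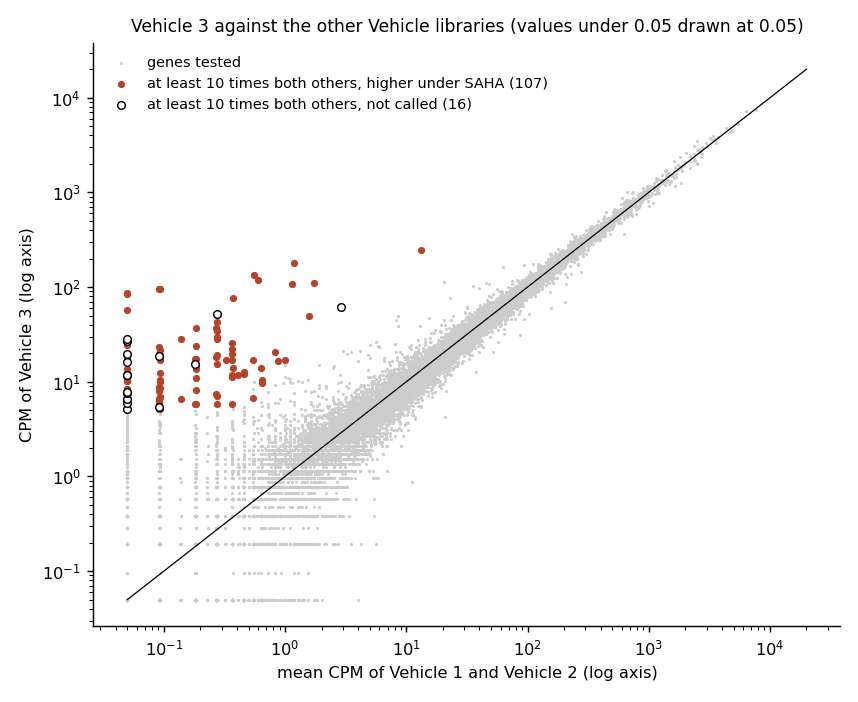
Each point is a gene tested, with its mean CPM in Vehicle 1 and Vehicle 2 on the x axis and its CPM in Vehicle 3 on the y axis (both log axes); the line marks equal levels. The 123 genes at least 10 times higher in Vehicle 3 stand above the line, 107 of them (red) higher under SAHA and 16 (open) not called.

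Of 9 zinc-dependent HDAC genes tested, out of 11, 5 rose and 1 fell (20.2% and 14% of all genes tested), the median log2 fold change being 0.83. Hdac1, the catalytic core of the SIN3, NuRD and CoREST complexes, had 449, 504 and 474 CPM under SAHA, against 236, 295 and 269 CPM in Vehicle. Its paralogue Hdac2 had 123, 112 and 117 CPM under SAHA, against 63.9, 58.2 and 56.1 CPM in Vehicle. Replicates lay close together and the groups were apart for both, with log2 fold changes of 0.83 ± 0.14 and 0.98 ± 0.18 (edgeR adjusted p = 3.69e-04 and 8.13e-04). Hdac9, a class IIa member at chr12:34047580-34917095, minus strand, had 102, 56.0 and 100.01 CPM under SAHA, against 0.368, 0.542 and 12.1 CPM in Vehicle; it was almost absent from Vehicle 1 and 2 and low in Vehicle 3 (log2 fold change 4.32 ± 0.80, edgeR adjusted p = 9.00e-04; 7.55 without Vehicle 3). Hdac8, a class I enzyme that deacetylates cohesin, had 8.52, 5.81 and 9.002 CPM under SAHA, against 3.13, 2.71 and 3.27 CPM in Vehicle (log2 fold change 1.35 ± 0.31, edgeR adjusted p = 0.00438). Hdac6, the tubulin deacetylase, passed with 0.65 ± 0.23 (edgeR adjusted p = 0.0393), but the call was lost without any one library except Vehicle 2 (adjusted p 0.145, 0.0626, 0.0513, 0.0784 and 0.14 without SAHA 1, 2, 3, Vehicle 1 and 3). Hdac4 had 9.08, 6.72 and 5.49 CPM under SAHA, against 19.5, 17.2 and 13.1 CPM in Vehicle (log2 fold change -1.23 ± 0.40, edgeR adjusted p = 0.0292), a call lost without SAHA 2, SAHA 3, Vehicle 1 or Vehicle 2 (adjusted p 0.0802, 0.11, 0.0961 and 0.0724). Hdac3, the enzyme of the NCoR complex, had 46.3, 50.7 and 42.0 CPM under SAHA, against 52.1, 56.4 and 53.04 CPM in Vehicle and did not pass (edgeR adjusted p = 0.32); Hdac5 and Hdac10 did not pass either (adjusted p = 0.276 and 0.353).

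Of 7 sirtuins, which use NAD and are not targets of hydroxamates, 2 rose and 1 fell (median -0.05), beside 20.2% and 14% of all genes tested. Sirt2 and Sirt4 rose and Sirt6 fell. The mitochondrial Sirt4 had 18.4, 28.3 and 18.003 CPM under SAHA, against 7.55, 7.96 and 5.48 CPM in Vehicle (log2 fold change 1.62 ± 0.27, edgeR adjusted p = 4.75e-04). Of 38 corepressor subunits 6 rose and 9 fell (20.2% and 14% of all genes tested). The risers included Sap30 and Arid4a of the SIN3 complex and Gps2 of the NCoR complex. Arid4a had 167, 89.5 and 173 CPM under SAHA, against 38.3, 35.4 and 47.5 CPM in Vehicle (log2 fold change 1.83 ± 0.24, edgeR adjusted p = 7.05e-05). Gps2 had 65.2, 80.1 and 73.3 CPM under SAHA, against 21.2, 25.7 and 35.7 CPM in Vehicle (log2 fold change 1.40 ± 0.23, edgeR adjusted p = 3.68e-04). The fallers included other NCoR and NuRD subunits. Mta3 of NuRD had 61.1, 72.5 and 56.0 CPM under SAHA, against 178, 196 and 199 CPM in Vehicle (log2 fold change -1.59 ± 0.16, edgeR adjusted p = 5.24e-06). Tbl1xr1 had 24.5, 26.9 and 23.1 CPM under SAHA, against 74.6, 64.9 and 65.9 CPM in Vehicle (log2 fold change -1.46 ± 0.19, edgeR adjusted p = 4.76e-05). Ncor1 itself had 61.2, 44.2 and 53.8 CPM under SAHA, against 140.2, 141 and 117 CPM in Vehicle (log2 fold change -1.32 ± 0.24, edgeR adjusted p = 7.01e-04). Subunits of 1 complex, NCoR, thus moved in both directions, each with groups that did not overlap. Of 16 histone acetyltransferases, the opposing enzymes, 5 fell and 1 rose (median -0.46), beside 14% and 20.2% of all genes tested. Without SAHA 3 the number falling was 3. Kat7, also called HBO1, had 33.6, 51.0 and 39.1 CPM under SAHA, against 78.3, 75.6 and 81.5 CPM in Vehicle (log2 fold change -0.93 ± 0.19, edgeR adjusted p = 0.00184). Kat2a, the SAGA enzyme GCN5, had 17.03, 13.6 and 7.90 CPM under SAHA, against 29.1, 33.3 and 26.5 CPM in Vehicle (log2 fold change -1.20 ± 0.29, edgeR adjusted p = 0.00561). Of 23 bromodomain genes, whose products bind acetylated lysines, 6 fell and 1 rose, and leaving out any 1 library gave 4 to 5 falling. Among genes at 10 to 100 CPM in siControl 25.03% fell, so falls were not particular to the acetyltransferase and bromodomain lists. Brd8 had 53.1, 52.6 and 54.0 CPM under SAHA, against 113, 101 and 119 CPM in Vehicle (log2 fold change -1.06 ± 0.17, edgeR adjusted p = 3.62e-04). Trim24 had 92.9, 108 and 88.5 CPM under SAHA, against 62.7, 60.9 and 49.2 CPM in Vehicle (log2 fold change 0.74 ± 0.18, edgeR adjusted p = 0.00654).

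Histone genes formed the other group with a near-complete rise. Replication-dependent histone genes supply histones in S phase; their messages normally end in a stem-loop in place of a poly(A) tail, so a poly(A) library reads only the minority that is polyadenylated. Of 35 tested, out of 38 listed, 32 rose and none fell (20.2% of all genes rose), the median log2 fold change being 3.22. Without Vehicle 3 the number that rose was 30. In 34 of the 35 every SAHA library lay above every Vehicle library, which was so for 28.7% of all genes tested. The summed level of the list was 678, 378 and 581 CPM under SAHA and 84.5, 83.2 and 93.2 CPM in Vehicle. All core classes and the linker took part: 5 of 6 H1 genes, 8 of 8 H2A, 9 of 10 H2B, 4 of 4 H3 and 6 of 7 H4 genes tested rose. Linker H1 genes summed to 102, 81.2 and 97.7 CPM under SAHA and 13.9, 14.9 and 15.8 CPM in Vehicle, and H2B genes to 234, 129 and 195 CPM under SAHA and 30.2, 18.4 and 28.3 CPM in Vehicle. SAHA 2 was the lowest SAHA library in both sums and was still above all Vehicle libraries.

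H2bc11, an H2B gene of the large cluster on chromosome 13, had 82.5, 36.1 and 61.5 CPM under SAHA, against 2.03, 0.723 and 0.769 CPM in Vehicle (log2 fold change 5.66 ± 0.49, edgeR adjusted p = 1.88e-06; 6.31 without Vehicle 1). H1f1, a linker histone gene, had 45.9, 33.8 and 29.9 CPM under SAHA, against 2.03, 3.53 and 1.92 CPM in Vehicle (log2 fold change 3.86 ± 0.35, edgeR adjusted p = 2.70e-06). H3c3, which encodes an H3.1 or H3.2 type histone, had 18.8, 9.72 and 12.6 CPM under SAHA, against 0.368, 1.08 and 1.15 CPM in Vehicle (log2 fold change 3.96 ± 0.49, edgeR adjusted p = 3.39e-05). The groups did not overlap for any of these. The 3 tested members that did not pass were H1f2, H2bc21 and H4f16, with edgeR adjusted p of 0.0566, 0.0554 and 0.108; H1f2 passed without SAHA 2 (0.0177) and H2bc21 without SAHA 3 (0.0479).

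The promoters of these 3 risers are shown because histone genes of different classes, which moved together here, share short promoter elements. They are the 250 bases before the annotated start from RefSeq's GRCm38.p6 annotation, read 5′ to 3′ on the gene's strand, with CCAAT and TATAAA, or their reverse complements ATTGG and TTTATA, in capitals.
H1f1 (chr13:23763418-23763667, plus strand): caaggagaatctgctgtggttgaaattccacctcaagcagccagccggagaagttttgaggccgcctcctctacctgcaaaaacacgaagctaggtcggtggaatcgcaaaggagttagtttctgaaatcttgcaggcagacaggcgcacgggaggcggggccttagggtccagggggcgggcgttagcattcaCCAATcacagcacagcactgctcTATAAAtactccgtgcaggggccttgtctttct
H2bc11 (chr13:22042948-22043197, plus strand): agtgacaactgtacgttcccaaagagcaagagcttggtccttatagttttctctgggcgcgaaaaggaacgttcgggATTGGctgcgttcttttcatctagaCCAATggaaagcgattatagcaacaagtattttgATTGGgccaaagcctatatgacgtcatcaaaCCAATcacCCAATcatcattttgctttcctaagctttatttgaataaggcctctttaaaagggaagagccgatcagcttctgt
H3c3 (chr13:23745522-23745771, minus strand): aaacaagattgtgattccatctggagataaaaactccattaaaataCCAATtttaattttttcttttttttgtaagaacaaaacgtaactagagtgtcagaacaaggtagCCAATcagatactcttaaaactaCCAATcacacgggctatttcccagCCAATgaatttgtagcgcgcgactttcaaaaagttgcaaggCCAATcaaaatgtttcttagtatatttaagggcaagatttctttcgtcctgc
CCAAT, the letters bound by NF-Y, stood on either strand in 30 of the 34 listed histone genes with a promoter in the table and in 34.5% of all 27025 promoters of the same length. TATAAA stood in 18 of the 34, against 12.97% of all promoters. Of the 3 shown, only H1f1 holds TATAAA, and the 2 motifs do not overlap each other. Such matches describe the letters in this window and are not measured binding.

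Among replacement histones, whose genes have introns or ordinary poly(A) tails, 6 of 13 rose and 1 fell (20.2% and 14% of all genes tested). Leaving out any 1 library gave 4 to 5 rising. H1f0, the linker histone of differentiated and resting cells and a classical responder to HDAC inhibitors, lies at chr15:79028450-79030504, plus strand and had 538, 558 and 848 CPM under SAHA, against 51.8, 51.7 and 70.0 CPM in Vehicle (log2 fold change 3.49 ± 0.26, edgeR adjusted p = 7.00e-07). Every SAHA library stood far above every Vehicle library. H2az2 had 235, 249.5 and 265 CPM under SAHA, against 107, 119 and 137 CPM in Vehicle (log2 fold change 1.04 ± 0.14, edgeR adjusted p = 8.22e-05). H2ax, whose phosphorylated form marks broken DNA, moved the other way, with 196, 160.4 and 211 CPM under SAHA, against 305, 359 and 335 CPM in Vehicle (log2 fold change -0.82 ± 0.19, edgeR adjusted p = 0.00448).

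Genes of the outer-cell lineage fell widely. Among 22 trophectoderm transcription factors, 12 fell and 2 rose (14% and 20.2% of all genes tested), the median log2 fold change being -1.17. Gata3, a zinc finger factor that works with TEAD4 upstream of trophectoderm genes, had 68.7, 81.9 and 73.1 CPM under SAHA, against 335, 296 and 304 CPM in Vehicle. The libraries of each group were tightly placed and far apart (log2 fold change -2.06 ± 0.22, edgeR adjusted p = 1.21e-05). Cdx2, the homeobox factor of trophectoderm, had 2.73, 2.18 and 1.54 CPM under SAHA, against 12.6, 14.8 and 9.99 CPM in Vehicle (log2 fold change -2.53 ± 0.47, edgeR adjusted p = 0.0014). Eomes, a T-box factor of trophoblast stem cells, had 2.73, 3.27 and 2.85 CPM under SAHA, against 18.4, 19.3 and 19.99 CPM in Vehicle (log2 fold change -2.70 ± 0.32, edgeR adjusted p = 2.27e-05). Tfap2c, an AP-2 factor that promotes polarity and Cdx2 transcription, had 11.1, 6.72 and 4.83 CPM under SAHA, against 48.1, 74.5 and 60.3 CPM in Vehicle (log2 fold change -3.01 ± 0.54, edgeR adjusted p = 7.55e-04). Tead4, the DNA-binding partner of YAP, had 38.8, 30.9 and 30.4 CPM under SAHA, against 90.8, 108 and 82.3 CPM in Vehicle (log2 fold change -1.49 ± 0.25, edgeR adjusted p = 3.93e-04). All 5 fell with groups that did not overlap. Members were often named for a small adjusted p, so here and elsewhere such separation describes the values and adds no support. Over all genes tested, 25.5% were lower and 28.7% higher without overlap. Esx1, an X-linked homeobox gene of extraembryonic tissue, rose, with 19.08, 13.6 and 17.8 CPM under SAHA, against 0.184, 0.362 and 0.192 CPM in Vehicle (log2 fold change 6.02 ± 0.46, edgeR adjusted p = 7.30e-07), and Dlx5 was counted only under SAHA (at least 5.93-fold higher, edgeR adjusted p = 0.0159).

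Epithelial genes fell too: 19 of 36 keratin, cadherin and junction genes fell and 1 rose (median -0.92), beside 14% and 20.2% of all genes tested. Keratins 8 and 18 pair into the first intermediate filaments of the embryo. Krt8 had 162, 191 and 275 CPM under SAHA, against 945, 942 and 902 CPM in Vehicle (log2 fold change -2.15 ± 0.21, edgeR adjusted p = 4.20e-06). Krt18 had 502, 499.6 and 519.6 CPM under SAHA, against 1807, 934 and 1313 CPM in Vehicle (log2 fold change -1.41 ± 0.24, edgeR adjusted p = 5.01e-04). Both were lower in every SAHA library. Dsp, which encodes the desmosome plaque protein desmoplakin, had 17.9, 16.7 and 15.1 CPM under SAHA, against 88.1, 67.4 and 79.2 CPM in Vehicle (log2 fold change -2.24 ± 0.24, edgeR adjusted p = 1.30e-05). Dsg2, a desmosomal cadherin, had 10.4, 7.26 and 7.25 CPM under SAHA, against 60.6, 42.3 and 54.0 CPM in Vehicle (log2 fold change -2.65 ± 0.34, edgeR adjusted p = 4.95e-05). Neither had an overlap between groups. Cldn7, a tight junction claudin, had 162, 147 and 151 CPM under SAHA, against 301, 348 and 337 CPM in Vehicle (log2 fold change -1.10 ± 0.14, edgeR adjusted p = 4.49e-05). E-cadherin, the adhesion molecule of compaction, did not pass: Cdh1 had 209, 177 and 177 CPM under SAHA, against 264, 205 and 209.6 CPM in Vehicle (edgeR adjusted p = 0.199), with overlapping groups. P-cadherin was the single riser of the list, Cdh3 having 25.5, 26.3 and 22.4 CPM under SAHA, against 3.87, 3.25 and 2.31 CPM in Vehicle (log2 fold change 2.97 ± 0.28, edgeR adjusted p = 3.12e-06).

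Of 40 polarity and Hippo pathway genes, 12 fell and 4 rose (14% and 20.2% of all genes tested). Among the fallers were Pard3, Msn and Amot. Pard3, a scaffold of the apical PAR complex, had 38.3, 41.2 and 25.03 CPM under SAHA, against 118, 106 and 104 CPM in Vehicle (log2 fold change -1.65 ± 0.26, edgeR adjusted p = 2.45e-04). Msn, the membrane-actin linker moesin, had 11.8, 17.1 and 15.1 CPM under SAHA, against 68.7, 54.8 and 70.7 CPM in Vehicle (log2 fold change -2.14 ± 0.24, edgeR adjusted p = 1.66e-05). Amot, which keeps YAP out of the nucleus of inner cells, had 7.27, 7.81 and 7.68 CPM under SAHA, against 21.4, 27.3 and 21.5 CPM in Vehicle (log2 fold change -1.62 ± 0.24, edgeR adjusted p = 1.41e-04). Each had groups that did not overlap. Pard6g, a PAR6 paralogue, went against them, with 27.9, 33.4 and 28.1 CPM under SAHA, against 6.82, 4.16 and 4.42 CPM in Vehicle (log2 fold change 2.54 ± 0.26, edgeR adjusted p = 8.26e-06). The YAP paralogues did not pass: Yap1 and Wwtr1 had adjusted p of 0.0919 and 0.347. Among 19 genes for the pumps and channels that fill the blastocyst cavity, 6 fell and 4 rose. Aquaporins moved in opposite directions: Aqp3 had 19.5, 12.5 and 13.9 CPM under SAHA, against 74.8, 84.3 and 66.3 CPM in Vehicle (log2 fold change -2.29 ± 0.51, edgeR adjusted p = 0.00342). Aqp9, which also carries glycerol and lactate, had 317, 278 and 353 CPM under SAHA, against 71.6, 85.4 and 89.8 CPM in Vehicle (log2 fold change 1.94 ± 0.15, edgeR adjusted p = 9.15e-07). Atp1b1, the beta subunit of the sodium pump, had 48.1, 56.2 and 43.0 CPM under SAHA, against 147, 112 and 111 CPM in Vehicle (log2 fold change -1.33 ± 0.20, edgeR adjusted p = 1.73e-04).

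**Figure D4:**
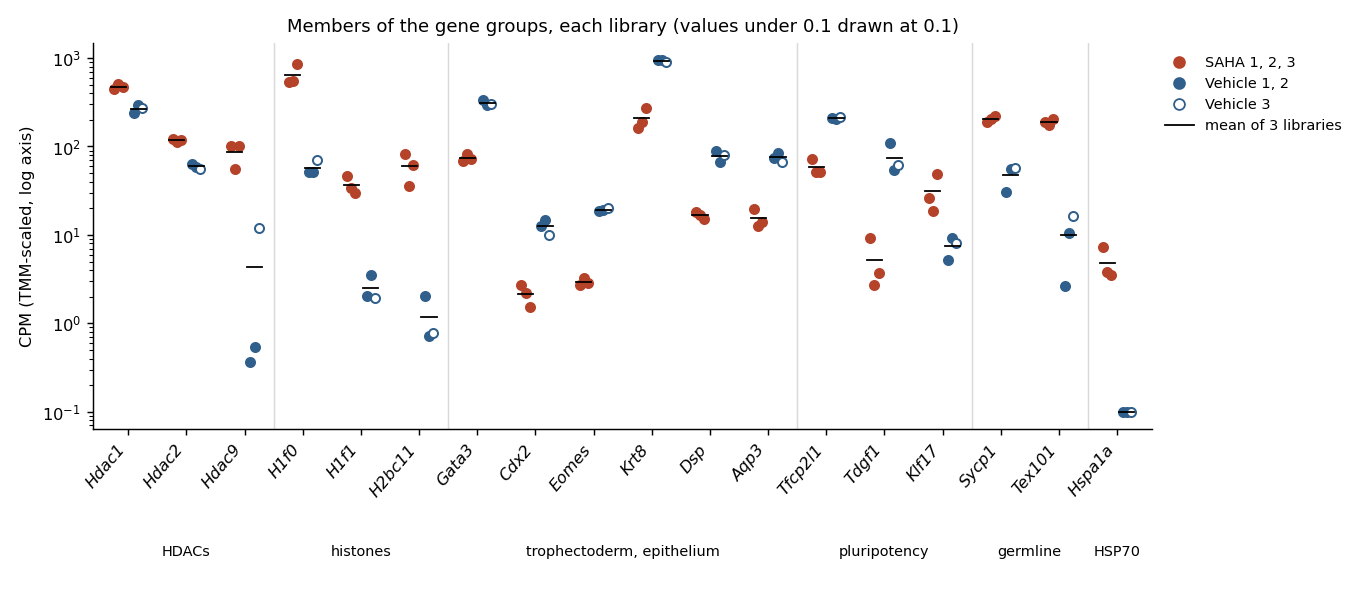
CPM (log axis) of 18 genes in each library, in blocks of deacetylases, histones, trophectoderm and epithelial genes, pluripotency genes, germline genes and the HSP70 gene Hspa1a; red circles are SAHA 1, 2 and 3, filled blue circles Vehicle 1 and 2, open circles Vehicle 3, and bars the mean of 3 libraries. Deacetylase, histone and germline genes are higher and trophectoderm and epithelial genes lower under SAHA, with no overlap between groups for any gene drawn.

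Inner-cell and pluripotency genes also fell widely: 20 of 34 fell and 3 rose (median -1.01), beside 14% and 20.2% of all genes tested. Tdgf1, the Nodal co-receptor Cripto, had 9.31, 2.72 and 3.73 CPM under SAHA, against 109, 53.7 and 61.7 CPM in Vehicle (log2 fold change -3.84 ± 0.48, edgeR adjusted p = 7.73e-05; -4.53 without SAHA 1). Esrrb, an orphan nuclear receptor of naive pluripotency, had 12.5, 10.7 and 8.78 CPM under SAHA, against 20.6, 25.5 and 20.8 CPM in Vehicle (log2 fold change -1.06 ± 0.27, edgeR adjusted p = 0.00687). Nr5a2, a nuclear receptor with a role from genome activation onwards, had 74.9, 90.2 and 77.3 CPM under SAHA, against 156, 167 and 173 CPM in Vehicle (log2 fold change -1.03 ± 0.28, edgeR adjusted p = 0.0113). SAHA values were below Vehicle values in each case. Pou5f1, which encodes OCT4, had 54.5, 45.9 and 31.0 CPM under SAHA, against 82.7, 106 and 73.0 CPM in Vehicle (log2 fold change -0.996 ± 0.29, edgeR adjusted p = 0.0152); this call was lost without SAHA 3 or Vehicle 2 (adjusted p 0.0745 and 0.068). Nanog, with 166, 119.9 and 72.0 CPM under SAHA, against 110.4, 186 and 197 CPM in Vehicle, overlapped between groups and did not pass (edgeR adjusted p = 0.264). Dppa3, a maternal protector of DNA methylation that stays on in the inner cells, had 8496, 8489 and 12735 CPM under SAHA, against 5818, 6828 and 7283 CPM in Vehicle and did not pass either (edgeR adjusted p = 0.107). The risers were Klf17, Fbxo15 and Manba. Klf17 had 25.9, 18.4 and 49.4 CPM under SAHA, against 5.16, 9.22 and 8.07 CPM in Vehicle (log2 fold change 2.06 ± 0.35, edgeR adjusted p = 7.45e-04). Fbxo15, an OCT4 target that encodes an F-box protein, had 1709, 1752 and 2623 CPM under SAHA, against 493, 779 and 729.9 CPM in Vehicle (log2 fold change 1.60 ± 0.25, edgeR adjusted p = 2.71e-04). Klf17 is itself a gene of the 2-cell to 4-cell embryo. In the Kruppel-like family 7 of 18 fell and 2 rose; Klf5, shared by trophectoderm and inner cells, had 119.6, 109.5 and 136 CPM under SAHA, against 276, 309 and 276 CPM in Vehicle (log2 fold change -1.24 ± 0.19, edgeR adjusted p = 2.47e-04). Klf4 had 8.63, 8.72 and 8.56 CPM under SAHA, against 17.9, 26.6 and 20.9 CPM in Vehicle (log2 fold change -1.33 ± 0.27, edgeR adjusted p = 0.00171).

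Primitive endoderm genes did not move as a block, with 4 of 23 higher and 4 lower, shares near the 20.2% and 14% of all genes tested. Gata6, which opens that fate, had 47.0, 28.8 and 27.9 CPM under SAHA, against 114, 138 and 104 CPM in Vehicle (log2 fold change -1.78 ± 0.36, edgeR adjusted p = 0.00167). Pdgfra, its early surface receptor, had 3.63, 2.36 and 4.83 CPM under SAHA, against 17.96, 11.3 and 12.8 CPM in Vehicle (log2 fold change -1.96 ± 0.46, edgeR adjusted p = 0.00479). Hnf4a, a nuclear receptor of later visceral endoderm, had 21.8, 9.44 and 20.6 CPM under SAHA, against 2.76, 3.07 and 3.07 CPM in Vehicle (log2 fold change 2.53 ± 0.43, edgeR adjusted p = 5.20e-04). Gata6 and Hnf4a therefore differed in sign, each without overlap between groups.

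Signalling genes showed a few large single changes. Of 32 FGF pathway and immediate early genes 9 rose and 4 fell. The ligand Fgf7 had 41.1, 28.8 and 37.5 CPM under SAHA, against 0.184, 0 and 0.192 CPM in Vehicle, a ratio of summed levels of 285 (95% counting interval 78.6 to 2364) with edgeR adjusted p = 6.11e-08. The ligand Fgf1 had 63.6, 28.7 and 68.9 CPM under SAHA, against 1.47, 0.452 and 4.23 CPM in Vehicle (log2 fold change 4.72 ± 0.59, edgeR adjusted p = 4.05e-05; 5.82 without Vehicle 3). Fgf7 was next to absent from all Vehicle libraries. Genes of ERK pathway phosphatases moved both ways, Dusp4 and Dusp6 falling and Dusp5 rising. Dusp4 had 4.77, 2.72 and 5.05 CPM under SAHA, against 18.2, 18.6 and 9.03 CPM in Vehicle (log2 fold change -1.87 ± 0.39, edgeR adjusted p = 0.00216). Dusp6 had 2.95, 3.81 and 4.17 CPM under SAHA, against 16.2, 15.01 and 12.1 CPM in Vehicle (log2 fold change -1.98 ± 0.52, edgeR adjusted p = 0.00956). Dusp5 had 4.996, 1.998 and 5.27 CPM under SAHA, against 0.553, 1.08 and 1.25 CPM in Vehicle (log2 fold change 2.07 ± 0.47, edgeR adjusted p = 0.00395). Fgf4, the ligand of the inner cells, did not pass (edgeR adjusted p = 0.496). Atf3, a stress-induced transcription factor, had 9.08, 6.72 and 7.90 CPM under SAHA, against 0.184, 0.904 and 0 CPM in Vehicle (log2 fold change 4.37 ± 0.56, edgeR adjusted p = 5.22e-05), and without Vehicle 2 the ratio of summed levels was 83.0 (95% counting interval 14.6 to 3309). Of 35 WNT genes 7 rose and 5 fell, shares close to the 20.2% and 14% of all genes, with 3 falling when SAHA 1 or Vehicle 1 was left out. Tcf7l1, a repressive partner of beta-catenin, had 64.8, 51.7 and 58.8 CPM under SAHA, against 20.1, 14.9 and 12.97 CPM in Vehicle (log2 fold change 1.87 ± 0.22, edgeR adjusted p = 2.57e-05). The ligand Wnt7b had 4.54, 3.995 and 0.659 CPM under SAHA, against 20.5, 18.4 and 19.03 CPM in Vehicle (log2 fold change -2.65 ± 0.48, edgeR adjusted p = 8.70e-04). Among BMP and Id genes 4 rose and 4 fell of 27; without SAHA 3, 2 rose and 1 fell, and 2 fell without SAHA 2, Vehicle 1 or Vehicle 2. Myc fell, with 2.95, 1.82 and 1.98 CPM under SAHA, against 14.002, 13.9 and 15.4 CPM in Vehicle (log2 fold change -2.68 ± 0.41, edgeR adjusted p = 2.13e-04), while Mxd1, a repressor that competes with MYC for MAX, had 8.18, 5.81 and 5.49 CPM under SAHA, against 1.11, 2.35 and 0.769 CPM in Vehicle (log2 fold change 2.19 ± 0.39, edgeR adjusted p = 7.26e-04). Mycn did not pass (edgeR adjusted p = 0.495).

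Of 19 CDK inhibitors and arrest genes, 7 rose and 1 fell (20.2% and 14% of all genes tested). Cdkn1a, which encodes p21 and is often induced by HDAC inhibitors in cultured cell lines, had 90.4, 108 and 65.0 CPM under SAHA, against 67.2, 113 and 115 CPM in Vehicle; the groups overlapped and the test was not passed (edgeR adjusted p = 0.688). Cdkn1c, which encodes p57, had 7.27, 8.72 and 12.3 CPM under SAHA, against 1.47, 0.362 and 0.577 CPM in Vehicle (log2 fold change 3.53 ± 0.68, edgeR adjusted p = 0.00125; 4.30 without Vehicle 1). Btg2, an antiproliferative partner of the deadenylase complex, had 81.1, 119 and 99.2 CPM under SAHA, against 31.9, 39.6 and 29.8 CPM in Vehicle (log2 fold change 1.56 ± 0.17, edgeR adjusted p = 1.46e-05). Gadd45b had 43.8, 27.2 and 25.2 CPM under SAHA, against 9.03, 7.41 and 6.34 CPM in Vehicle (log2 fold change 2.08 ± 0.26, edgeR adjusted p = 4.61e-05). Each of the 3 separated the groups. Of 44 cyclins, kinases and replication factors 5 rose and 9 fell, the falling number being 3 without SAHA 3 and 5 without Vehicle 2. Ccnd2 had 9.77, 11.6 and 8.56 CPM under SAHA, against 0.921, 0.542 and 0.577 CPM in Vehicle (log2 fold change 3.85 ± 0.75, edgeR adjusted p = 0.00135). Ccna2, the S and G2 cyclin, had 400.4, 377 and 475 CPM under SAHA, against 211, 247 and 267 CPM in Vehicle (log2 fold change 0.79 ± 0.17, edgeR adjusted p = 0.00232); Cdc25a, the phosphatase that starts S phase, had 21.3, 19.8 and 18.003 CPM under SAHA, against 36.5, 37.8 and 41.5 CPM in Vehicle (log2 fold change -0.97 ± 0.22, edgeR adjusted p = 0.00398). In the BCL2 family 3 of 15 rose and 4 fell. Pmaip1, the death inducer NOXA, had 58.4, 81.9 and 75.1 CPM under SAHA, against 28.0, 30.9 and 25.9 CPM in Vehicle (log2 fold change 1.34 ± 0.19, edgeR adjusted p = 1.17e-04). Bok, another death effector, had 7.95, 11.4 and 5.93 CPM under SAHA, against 34.5, 46.8 and 33.4 CPM in Vehicle (log2 fold change -2.17 ± 0.34, edgeR adjusted p = 2.68e-04). Both separated the groups, in opposite directions. In the p53 group Perp, a desmosomal and p53 target gene, had 21.6, 20.2 and 19.98 CPM under SAHA, against 136, 116 and 116 CPM in Vehicle (log2 fold change -2.57 ± 0.25, edgeR adjusted p = 4.44e-06). Trp53 itself had 42.7, 49.2 and 39.3 CPM under SAHA, against 67.4, 91.5 and 85.7 CPM in Vehicle (log2 fold change -0.90 ± 0.20, edgeR adjusted p = 0.00361), while Mdm2 did not pass (edgeR adjusted p = 0.295).

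Many germline genes rose. Of 45 meiosis and piRNA genes tested, out of 50 listed, 24 rose and 1 fell (20.2% of all genes rose), the median log2 fold change being 1.16; without Vehicle 3, 23 rose. Sycp1, the transverse filament of the synaptonemal complex, had 189, 207 and 218 CPM under SAHA, against 30.6, 55.9 and 56.9 CPM in Vehicle (log2 fold change 2.10 ± 0.21, edgeR adjusted p = 5.98e-06). Tex101, a surface protein of germ cells, had 190.1, 175 and 205 CPM under SAHA, against 2.67, 10.49 and 16.5 CPM in Vehicle (log2 fold change 4.26 ± 0.52, edgeR adjusted p = 3.46e-05; 4.88 without Vehicle 3). Slc25a31, the testis ADP/ATP carrier, had 37.0, 40.4 and 38.0 CPM under SAHA, against 3.68, 4.16 and 7.11 CPM in Vehicle (log2 fold change 2.95 ± 0.43, edgeR adjusted p = 1.37e-04). Tdrd9, a piRNA pathway helicase, had 11.8, 11.3 and 9.66 CPM under SAHA, against 0.921, 1.27 and 1.73 CPM in Vehicle (log2 fold change 3.05 ± 0.36, edgeR adjusted p = 2.14e-05). In all 4 the lowest SAHA library was above the highest Vehicle library. Not every germline gene followed: Dazl and Ddx4 did not pass (edgeR adjusted p = 0.0967 and 0.0746). Stra8, the gate to meiosis, overlapped between groups, with 1.36, 1.45 and 3.73 CPM under SAHA, against 3.13, 2.53 and 3.65 CPM in Vehicle (edgeR adjusted p = 0.594). Piwil2, a PIWI protein, fell, with 6.13, 8.35 and 5.27 CPM under SAHA, against 19.8, 25.7 and 20.3 CPM in Vehicle (log2 fold change -1.73 ± 0.28, edgeR adjusted p = 3.58e-04).

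In mouse embryonic stem cells, meiotic genes are held silent by the Polycomb complex PRC1.6, whose MGA and MAX subunits recognise the E-box CACGTG. The same 250-base windows of 3 risers are shown for that reason, with CACGTG in capitals. All 3 hold the motif, whereas Tex101, named above, does not.
Sycp1 (chr3:102936101-102936350, minus strand): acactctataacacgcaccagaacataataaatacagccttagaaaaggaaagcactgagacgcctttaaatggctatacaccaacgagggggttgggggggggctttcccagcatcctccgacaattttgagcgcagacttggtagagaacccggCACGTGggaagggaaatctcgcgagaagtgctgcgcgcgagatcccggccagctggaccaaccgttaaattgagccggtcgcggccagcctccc
Tdrd9 (chr12:111971309-111971558, plus strand): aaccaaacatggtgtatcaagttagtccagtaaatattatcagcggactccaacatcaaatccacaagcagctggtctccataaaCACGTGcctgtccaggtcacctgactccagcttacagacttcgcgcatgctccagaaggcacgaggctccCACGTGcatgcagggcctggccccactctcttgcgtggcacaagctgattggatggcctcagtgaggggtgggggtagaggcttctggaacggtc
Slc25a31 (chr3:40708621-40708870, plus strand): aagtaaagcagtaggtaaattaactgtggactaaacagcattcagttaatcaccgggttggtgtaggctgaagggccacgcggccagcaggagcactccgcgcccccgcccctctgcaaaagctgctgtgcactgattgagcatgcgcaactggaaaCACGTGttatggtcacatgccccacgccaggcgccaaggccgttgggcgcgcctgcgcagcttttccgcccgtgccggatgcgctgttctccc
CACGTG, which reads the same on both strands, stood in 12 of 22 risers of the list with a promoter in the table and in 3 of 17 tested genes that did not rise. Among all 27025 promoters the share was 6.05%. The match is a description of sequence, and binding was not measured here. A part of PRC1.6 in these rises was not tested.

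Neuronal genes were also called higher more often than lower, with 15 of 37 tested, out of 54 listed, higher, 2 lower and a median of 1.21. Over all genes tested 20.2% rose and 14% fell, and of those at 0 to 1 CPM in siControl 41.8% rose. Bex2, a small adaptor protein gene, had 25.4, 17.98 and 29.6 CPM under SAHA, against 0, 0.542 and 0.577 CPM in Vehicle (log2 fold change 5.99 ± 0.55, edgeR adjusted p = 2.92e-06). Map1b, which stabilises microtubules in growing axons, had 48.4, 47.1 and 47.0 CPM under SAHA, against 6.26, 3.07 and 7.495 CPM in Vehicle (log2 fold change 3.08 ± 0.43, edgeR adjusted p = 9.11e-05), and Mapt, which encodes tau, was already present in Vehicle and had 220.2, 190.0 and 231 CPM under SAHA, against 94.5, 81.2 and 85.5 CPM in Vehicle (log2 fold change 1.30 ± 0.19, edgeR adjusted p = 1.53e-04). Of 15 tubulin genes 6 rose and none fell; Tubb6 had 79.0, 115 and 95.8 CPM under SAHA, against 46.4, 41.2 and 54.4 CPM in Vehicle (log2 fold change 1.03 ± 0.19, edgeR adjusted p = 8.64e-04). Of 20 oocyte transcripts tested, out of 39 listed, 4 rose and none fell, close to the 20.2% of all genes. Kit, the stem cell factor receptor of oocytes, had 6.81, 5.45 and 7.46 CPM under SAHA, against 0.368, 0.362 and 0.192 CPM in Vehicle (log2 fold change 4.36 ± 0.46, edgeR adjusted p = 9.57e-06), and Oog4 was counted only under SAHA, at least 76.4-fold higher (edgeR adjusted p = 3.20e-05).

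Glycolysis genes rose more often than they fell. Of 35 glycolysis and pyruvate genes 13 rose and 6 fell (20.2% and 14% of all genes tested). Leaving out any 1 library gave 10 to 12 rising and 2 to 3 falling. Ldha, the lactate dehydrogenase A subunit, had 179, 247 and 179 CPM under SAHA, against 39.2, 33.6 and 30.6 CPM in Vehicle (log2 fold change 2.55 ± 0.33, edgeR adjusted p = 5.52e-05). Pfkm, the muscle-type phosphofructokinase, had 17.9, 13.98 and 25.4 CPM under SAHA, against 3.87, 2.35 and 1.73 CPM in Vehicle (log2 fold change 2.84 ± 0.31, edgeR adjusted p = 1.22e-05). Pdk3, which blocks entry of pyruvate into mitochondria's citrate cycle, had 42.0, 53.4 and 53.6 CPM under SAHA, against 11.4, 7.05 and 8.07 CPM in Vehicle (log2 fold change 2.49 ± 0.26, edgeR adjusted p = 8.42e-06). Slc2a3, a glucose transporter, was lower, with 158, 139.7 and 127 CPM under SAHA, against 356, 343 and 284 CPM in Vehicle (log2 fold change -1.21 ± 0.35, edgeR adjusted p = 0.0159), though this call was lost without SAHA 3 (adjusted p 0.0618). In cholesterol synthesis 6 of 26 rose and 2 fell; without SAHA 3, 3 rose, and leaving out any 1 library left 0 to 1 falling. Cyp51, a demethylase of lanosterol, had 30.9, 31.2 and 32.5 CPM under SAHA, against 8.29, 10.7 and 15.4 CPM in Vehicle (log2 fold change 1.46 ± 0.23, edgeR adjusted p = 3.19e-04). Dhcr7, which makes cholesterol in the last step, had 114, 72.6 and 101 CPM under SAHA, against 33.9, 37.2 and 39.2 CPM in Vehicle (log2 fold change 1.38 ± 0.25, edgeR adjusted p = 8.78e-04).

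Lysosomal genes fell more often than they rose, 15 of 36 against 3 that rose (14% and 20.2% of all genes tested), with a median of -0.27. Neu1, the lysosomal sialidase, had 21.9, 22.3 and 19.98 CPM under SAHA, against 144, 147 and 129 CPM in Vehicle (log2 fold change -2.71 ± 0.19, edgeR adjusted p = 3.02e-07). Hexa, a subunit of beta-hexosaminidase, had 23.4, 21.1 and 31.8 CPM under SAHA, against 191, 118 and 139 CPM in Vehicle (log2 fold change -2.56 ± 0.30, edgeR adjusted p = 2.36e-05). Neither gene had an overlap between groups. Cd63, a tetraspanin of late endosomes, had 1699, 1644 and 1815 CPM under SAHA, against 3639.7, 3347 and 3656 CPM in Vehicle (log2 fold change -1.04 ± 0.15, edgeR adjusted p = 1.58e-04). Of 26 antioxidant genes 6 fell and 1 rose. Keap1, the sensor that marks NRF2 for breakdown, had 2.27, 1.45 and 0.878 CPM under SAHA, against 16.3, 12.1 and 15.2 CPM in Vehicle (log2 fold change -3.24 ± 0.42, edgeR adjusted p = 5.31e-05). Gsr, glutathione reductase, had 16.8, 20.2 and 19.8 CPM under SAHA, against 59.4, 64.6 and 67.8 CPM in Vehicle (log2 fold change -1.76 ± 0.18, edgeR adjusted p = 7.40e-06). Nfe2l2, which encodes NRF2, and its target Hmox1 did not pass (edgeR adjusted p = 0.87 and 0.322).

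Mitochondrially encoded messages took 2.06, 1.61 and 2.15% of counts under SAHA and 1.20, 1.03 and 0.997% in Vehicle, or 1.94 ± 0.289% and 1.07 ± 0.109% (SD, n = 3 each; exact permutation p = 0.1, 2-sided, the smallest possible). Of 11 such messages tested 6 rose (20.2% of all genes tested), and 3 without SAHA 3. mt-Nd2, a subunit of complex I, had 1187, 827 and 1363 CPM under SAHA, against 521, 594 and 506 CPM in Vehicle (log2 fold change 1.06 ± 0.21, edgeR adjusted p = 0.00183), while mt-Co1, of complex IV, did not pass (edgeR adjusted p = 0.19). Whether this share moves with RNA quality was not tested. Cytosolic ribosomal protein genes were nearly flat, 1 of 55 rising and none falling (median 0.07).

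Chaperone genes went both ways. Of 29 tested 7 rose and 9 fell (20.2% and 14% of all genes tested). The inducible HSP70 gene Hspa1a was counted only under SAHA, with 7.27, 3.81 and 3.51 CPM under SAHA, against 0 CPM in each Vehicle library, at least 52.4-fold higher (edgeR adjusted p = 6.60e-05). Hspa2, the HSP70 of the testis, had 19.5, 21.97 and 17.1 CPM under SAHA, against 4.24, 1.63 and 2.498 CPM in Vehicle (log2 fold change 2.81 ± 0.34, edgeR adjusted p = 2.97e-05). Dnajb9, a co-chaperone of the endoplasmic reticulum, had 272, 327 and 512 CPM under SAHA, against 33.3, 57.1 and 109 CPM in Vehicle (log2 fold change 2.48 ± 0.37, edgeR adjusted p = 1.83e-04; 3.07 without Vehicle 3). Among the fallers, Hsph1, an exchange factor for HSP70, had 51.1, 48.3 and 57.7 CPM under SAHA, against 174, 189 and 161 CPM in Vehicle (log2 fold change -1.74 ± 0.21, edgeR adjusted p = 3.45e-05). The mitochondrial Hspd1 had 299.5, 335 and 335 CPM under SAHA, against 793, 704 and 769.9 CPM in Vehicle (log2 fold change -1.23 ± 0.16, edgeR adjusted p = 5.41e-05). Hspa5, the main chaperone of the endoplasmic reticulum, did not pass (edgeR adjusted p = 0.64). In the integrated stress response Ppp1r15a, which restarts translation, had 67.9, 51.2 and 99.9 CPM under SAHA, against 21.004, 29.4 and 31.5 CPM in Vehicle (log2 fold change 1.42 ± 0.24, edgeR adjusted p = 5.31e-04). Ddit3, which encodes CHOP, had 20.2, 17.3 and 24.04 CPM under SAHA, against 36.4, 48.8 and 31.5 CPM in Vehicle (log2 fold change -0.92 ± 0.23, edgeR adjusted p = 0.00645). Atf4, which stands upstream of Ddit3, did not pass (edgeR adjusted p = 0.0551; 0.0488 without SAHA 1). Stress genes thus gave no common direction. Of 19 interferon and double-stranded RNA genes that could be tested, out of 37 listed, 8 rose and 1 fell. Among all genes at 0 to 1 CPM in siControl 41.8% rose. Ddx58, the sensor RIG-I, had 8.86, 8.72 and 6.04 CPM under SAHA, against 2.30, 0.904 and 0.961 CPM in Vehicle (log2 fold change 2.49 ± 0.42, edgeR adjusted p = 4.56e-04). Stat2 had 23.3, 26.2 and 25.03 CPM under SAHA, against 8.01, 9.67 and 12.6 CPM in Vehicle (log2 fold change 1.30 ± 0.21, edgeR adjusted p = 3.20e-04).

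Among the chromatin regulators listed, DNA methylation and SWI/SNF genes were each called lower more often than higher, beside 14% lower and 20.2% higher over all genes. Among genes at 10 to 100 CPM in siControl 25.03% fell and 11.7% rose, so an excess of falls was not particular to these lists. In the SWI/SNF remodelling complex 11 of 26 subunits fell and 1 rose (median -0.41). The DNA-binding subunits Arid1a, Arid1b and Arid2 all fell. Arid1a had 34.9, 34.1 and 25.2 CPM under SAHA, against 90.8, 102 and 77.3 CPM in Vehicle (log2 fold change -1.52 ± 0.26, edgeR adjusted p = 6.03e-04). Arid1b had 10.9, 10.2 and 9.88 CPM under SAHA, against 34.5, 29.8 and 27.1 CPM in Vehicle (log2 fold change -1.56 ± 0.22, edgeR adjusted p = 1.28e-04). Arid2 had 16.1, 21.1 and 16.03 CPM under SAHA, against 42.9, 38.7 and 46.1 CPM in Vehicle (log2 fold change -1.26 ± 0.20, edgeR adjusted p = 2.70e-04). None of the 3 had an overlap between groups. Of 18 DNA methylation genes 7 fell and 2 rose. The de novo enzyme Dnmt3a had 11.8, 12.98 and 12.1 CPM under SAHA, against 30.6, 37.4 and 41.7 CPM in Vehicle (log2 fold change -1.57 ± 0.26, edgeR adjusted p = 3.50e-04). Its partner Dnmt3l had 22.3, 22.2 and 17.6 CPM under SAHA, against 47.5, 52.98 and 53.6 CPM in Vehicle (log2 fold change -1.31 ± 0.23, edgeR adjusted p = 6.10e-04). The demethylating Tet1 had 40.1, 18.9 and 22.6 CPM under SAHA, against 107, 86.4 and 79.0 CPM in Vehicle (log2 fold change -1.74 ± 0.32, edgeR adjusted p = 8.63e-04). Maintenance genes did not pass, Dnmt1 and Uhrf1 having adjusted p of 0.117 and 0.556. In Polycomb 6 of 31 fell and 4 rose, and without Vehicle 3 4 fell and 4 rose; Aebp2 had 35.0, 31.3 and 30.7 CPM under SAHA, against 59.97, 95.2 and 80.3 CPM in Vehicle (log2 fold change -1.28 ± 0.27, edgeR adjusted p = 0.00224).

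Of 33 genes for silencing of retroelements, which act on elements such as MERVL, 8 fell and 2 rose (14% and 20.2% of all genes tested). The share falling, 24.2%, was near the 25.03% of genes at 10 to 100 CPM in siControl, so it was not particular to this list. Without SAHA 3 the falling number was 5. Ehmt2, the H3K9 methyltransferase G9a, had 15.4, 9.08 and 9.66 CPM under SAHA, against 37.4, 43.4 and 28.6 CPM in Vehicle (log2 fold change -1.68 ± 0.39, edgeR adjusted p = 0.00411). Cbx5, the reader HP1 alpha, had 42.7, 55.6 and 46.1 CPM under SAHA, against 121, 125 and 117 CPM in Vehicle (log2 fold change -1.33 ± 0.17, edgeR adjusted p = 4.08e-05). Setdb1 did not pass (edgeR adjusted p = 0.0988). Zfp809, a KRAB zinc finger that recognises retroviral primer binding sites, rose, with 290, 220.2 and 315 CPM under SAHA, against 39.8, 47.8 and 40.6 CPM in Vehicle (log2 fold change 2.69 ± 0.17, edgeR adjusted p = 2.48e-07). Zfp57, which guards imprints, fell, with 9.77, 7.45 and 5.71 CPM under SAHA, against 34.3, 28.7 and 25.4 CPM in Vehicle (log2 fold change -1.95 ± 0.39, edgeR adjusted p = 0.00173). Of 30 imprinted genes 4 rose and 6 fell, and 3 fell without SAHA 3 or Vehicle 1. Phlda2, a maternally expressed brake on placental growth, had 32.7, 30.9 and 52.5 CPM under SAHA, against 9.03, 5.61 and 6.92 CPM in Vehicle (log2 fold change 2.43 ± 0.35, edgeR adjusted p = 1.46e-04). Sfmbt2, a paternally expressed trophoblast gene, had 19.2, 18.7 and 9.44 CPM under SAHA, against 72.7, 58.9 and 57.1 CPM in Vehicle (log2 fold change -1.99 ± 0.27, edgeR adjusted p = 8.62e-05). In the microRNA pathway 4 of 18 rose and 4 fell. Without SAHA 1, 2 rose, and the number falling was 1 without SAHA 3 and 2 without SAHA 2 or any single Vehicle library. Tnrc6b, a GW182 protein that joins Argonaute to deadenylases, had 46.0, 49.8 and 49.3 CPM under SAHA, against 26.1, 16.997 and 19.8 CPM in Vehicle (log2 fold change 1.21 ± 0.23, edgeR adjusted p = 0.00102). Xpo5, the exporter of precursor hairpins, had 26.6, 24.2 and 24.2 CPM under SAHA, against 43.1, 42.7 and 38.8 CPM in Vehicle (log2 fold change -0.73 ± 0.19, edgeR adjusted p = 0.00793); Ago2 did not pass (edgeR adjusted p = 0.0962). Where only 1 or 2 members of a list other than Obox are given as moving in a direction, 0 to 3 did so with 1 library left out. The Mir203 row had 0 counts in all 6 libraries; mature microRNAs are not captured by poly(A) libraries.

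**Figure D5:**
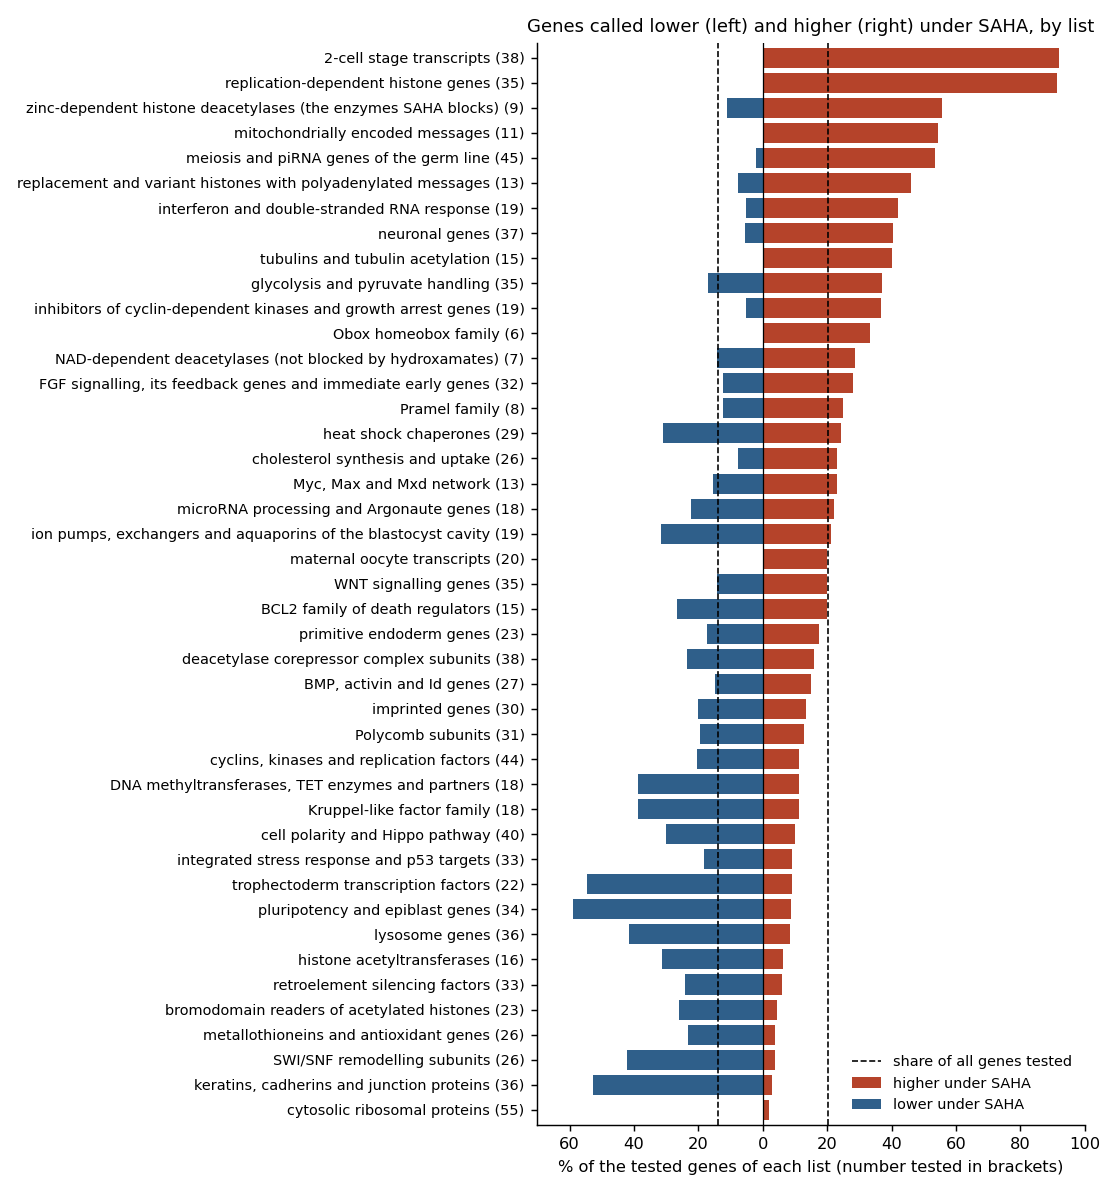
Share of the tested genes of each list that were called lower (blue, left) or higher (red, right) under SAHA, with the number tested in brackets; dashed lines mark the share among all 18299 genes tested, 14% lower and 20.2% higher. The lists of 2-cell and replication-dependent histone genes reach furthest right, and pluripotency, trophectoderm and epithelial lists furthest left.

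Outside the lists, the largest rises among named genes were in genes that morulae hardly transcribe. Adh7, an alcohol and retinol dehydrogenase of epithelia, had 9.77, 10.7 and 16.5 CPM under SAHA, against 0 CPM in each Vehicle library, at least 133-fold higher (edgeR adjusted p = 3.03e-06). Ccl3, a chemokine of macrophages, had 53.03, 32.1 and 71.4 CPM under SAHA, against 0, 0 and 0.384 CPM in Vehicle, a ratio of summed levels of 411 (95% counting interval 113 to 3397) with edgeR adjusted p = 1.42e-06; with Vehicle 3 left out, the other Vehicle libraries having no count, it was at least 371-fold higher. Chrm3, a muscarinic acetylcholine receptor, had 158, 93.1 and 162 CPM under SAHA, against 0.368, 0.181 and 2.31 CPM in Vehicle (log2 fold change 7.18 ± 0.52, edgeR adjusted p = 4.74e-07), with a ratio of 491 (95% counting interval 168 to 2384) without Vehicle 3. Slc10a6, a carrier of sulfated steroids, had 454, 276 and 425 CPM under SAHA, against 1.11, 1.99 and 10.4 CPM in Vehicle (log2 fold change 6.43 ± 0.63, edgeR adjusted p = 4.66e-06; 7.98 without Vehicle 3). Lmx1a, a homeobox factor of dopamine neurons, had 139, 63.4 and 146 CPM under SAHA, against 0, 0.181 and 3.65 CPM in Vehicle (log2 fold change 6.52 ± 0.75, edgeR adjusted p = 1.91e-05; 5.93 without Vehicle 1), with a ratio of 1232 (95% counting interval 221 to 48683) without Vehicle 3. All were at or near 0 in Vehicle 1 and 2 and well above it in every SAHA library.

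MHC class II genes appeared among them. H2-Ob had 19.3, 9.99 and 9.002 CPM under SAHA, against 0 CPM in each Vehicle library, at least 138-fold higher (edgeR adjusted p = 1.63e-04). Ciita, the master activator of class II genes, had 16.4, 18.7 and 24.6 CPM under SAHA, against 0, 0.362 and 0.192 CPM in Vehicle, a ratio of summed levels of 107 (95% counting interval 36.2 to 521) with edgeR adjusted p = 2.92e-06; without Vehicle 2 the ratio was 211 (95% counting interval 37.6 to 8360.0). With these in view, all 10 class II genes with their activator and invariant chain were counted, a set chosen after its values were seen. Of the 10, 7 rose and none fell (20.2% and 14% of all genes tested). H2-Ab1 had 29.0, 30.9 and 60.4 CPM under SAHA, against 11.6, 8.50 and 9.22 CPM in Vehicle (log2 fold change 2.03 ± 0.34, edgeR adjusted p = 4.31e-04). The invariant chain gene Cd74 had 36.8, 17.3 and 48.5 CPM under SAHA, against 11.8, 5.24 and 4.52 CPM in Vehicle (log2 fold change 2.25 ± 0.51, edgeR adjusted p = 0.00371). Cd74 is also 1 of the 11 blood markers, whose summed levels are given with the markers at the start; Hba-a1 and Hba-a2 of that list rose with it, Csf1r did not pass (edgeR adjusted p = 0.13), and Hbb-bs and Itgam were at 0 in all 6 libraries. The part of those markers in the rise of class II genes and of Ccl3 was not tested.

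The steepest falls outside the lists were in genes with clear levels in Vehicle. Lcp1, the actin bundler L-plastin, had 2.27, 5.45 and 3.07 CPM under SAHA, against 214, 89.5 and 87.8 CPM in Vehicle (log2 fold change -5.16 ± 0.57, edgeR adjusted p = 1.44e-05). Wipf1, a partner of WASP in actin branching, had 1.14, 0.182 and 0.878 CPM under SAHA, against 45.2, 28.6 and 26.5 CPM in Vehicle (log2 fold change -5.54 ± 0.56, edgeR adjusted p = 6.21e-06). Enpep, a membrane aminopeptidase, had 6.81, 6.17 and 5.93 CPM under SAHA, against 136, 117 and 136 CPM in Vehicle (log2 fold change -4.36 ± 0.33, edgeR adjusted p = 7.08e-07). Ank, a transporter of ATP and pyrophosphate, had 10.2, 6.36 and 6.37 CPM under SAHA, against 137, 102 and 106 CPM in Vehicle (log2 fold change -3.91 ± 0.25, edgeR adjusted p = 2.38e-07). Vehicle 1 was the highest library for Lcp1 and Wipf1, and no SAHA library came near the Vehicle range of any of the 4. Spp1, the secreted ligand osteopontin, had 9.77, 7.26 and 7.03 CPM under SAHA, against 152, 64.9 and 92.2 CPM in Vehicle (log2 fold change -3.68 ± 0.52, edgeR adjusted p = 1.20e-04). Adh1 had 1.82, 2.91 and 6.15 CPM under SAHA, against 372, 38.2 and 69.3 CPM in Vehicle (log2 fold change -5.46 ± 0.77, edgeR adjusted p = 1.04e-04). Without Vehicle 1 its value was -3.89, and without SAHA 3 -6.05. Among abundant messages, Actb, cytoplasmic beta-actin, had 1459, 1143 and 999.4 CPM under SAHA, against 2803, 2580.0 and 2372 CPM in Vehicle (log2 fold change -1.11 ± 0.15, edgeR adjusted p = 6.08e-05). Akr1b8, of the aldose reductase family, had 154, 129.9 and 221 CPM under SAHA, against 1279, 1296 and 1354 CPM in Vehicle (log2 fold change -2.96 ± 0.20, edgeR adjusted p = 2.98e-07). Fabp3, a fatty acid carrier, had 95.5, 24.7 and 162 CPM under SAHA, against 1295, 946 and 961 CPM in Vehicle (log2 fold change -3.51 ± 0.54, edgeR adjusted p = 2.18e-04; -4.15 without SAHA 3). Crxos, a homeobox gene of cleavage embryos, had 1302, 843 and 1247 CPM under SAHA, against 2787, 2764 and 2909 CPM in Vehicle (log2 fold change -1.32 ± 0.30, edgeR adjusted p = 0.00414).

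The series holds 2 further inhibitor groups that use these Vehicle libraries: TSA, another hydroxamate HDAC inhibitor, at 50 nM, and A485, a blocker of the p300 and CBP acetyltransferases, at 10 uM. Doses differ and the control is shared, so values are set side by side without comparison. For MERVL-int the log2 fold change against Vehicle was 5.38 ± 0.96 under SAHA, 6.72 ± 1.02 under TSA and -3.24 ± 0.89 under A485. For H1f0 it was 3.49 ± 0.26 under SAHA, 2.87 ± 0.26 under TSA and 1.81 ± 0.25 under A485. For Hdac1 the values were 0.83 ± 0.14 under SAHA, 0.92 ± 0.14 under TSA and 0.25 ± 0.14 under A485. For Gata3 they were -2.06 ± 0.22 under SAHA, -5.81 ± 0.28 under TSA and -3.31 ± 0.24 under A485, and for Krt8 -2.15 ± 0.21 under SAHA, -3.45 ± 0.22 under TSA and -0.25 ± 0.20 under A485.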

How the data were processed

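Read counts per gene were deposited as 1 table of 55367 gene rows and 2 MERVL rows. Per the submitters' processing notes, STAR 2.7.11a, featureCounts and Subread 2.0.6 were among the tools; the notes list mm10 and GRCh38 without a role, and annotation release, strand setting and MERVL counting were not given in the sources used here. Per the labels, libraries were made from amplified cDNA of 15 to 20 embryos, and counts are of reads, not molecules; 83.3% to 84.8% of nonzero counts in the 6 libraries were even, so 2 counts may be 1 read pair. Genes passing filterByExpr (minimum count 10) were fitted with edgeR 4.0.16 (R 4.3.3; TMM, quasi-likelihood) over the 12 libraries of SAHA, A485, TSA and Vehicle, with 3 libraries a group and 1 shared estimate of spread. The standard error is the log2 fold change over the square root of F. On data simulated from the Vehicle means for the 6 libraries compared (13153 genes), the test recovered 64 of 66 simulated 4-fold changes, 50 of 67 at 2-fold and 14 of 67 at 1.5-fold, and 13 of its 141 calls were false. The alternatives used DESeq2 1.42.0 and limma 3.58.1 on the deposited counts. Permutation tests used SciPy 1.17.1.

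Members, gene lists and tests were chosen with earlier results of these data known. Named genes are the MERVL rows, Hdac genes, the 5 risers and 5 fallers of each list with the smallest adjusted p, the 20 largest changes in each direction outside the lists that also passed without Vehicle 3 (mean of at least 10 CPM in the higher group, groups not overlapping), and the 10 largest CPM differences in each direction; not all are written out. Other list members, those that did not pass among them, were named after their values were seen. Gene positions come from GENCODE vM21, which matched 17852 of the 18299 genes tested by symbol. No replicates were duplicates: counts of each pair differed beyond sampling noise.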

Additional observations from a re-analysis of the deposited data

How the results depend on the processing

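Counts of higher and lower genes kept within 1.5 times those reported under all 16 alternatives. Leaving out 1 library gave 2966 to 3321 genes higher and 1757 to 1998 genes lower. Other fits gave between 3101 (at least 5 CPM in 3 libraries) and 4462 (limma-voom) higher and between 2179 (at least 5 CPM in 3 libraries) and 3648 (limma-voom) lower. The share of calls that were higher was 59.0% as reported, 61.5% with DESeq2 size factors and 58.2% with library size alone, and the median of all genes was 0.10 and 0.05 under those scalings.

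The log2 fold change of MERVL-int was 4.86 to 8.19 with 1 library left out and 5.34 to 6.75 under other fits; DESeq2 gave it no adjusted p. The mitochondrial difference was 0.761 to 1.03 percentage points with 1 library left out, and the difference in genes detected 1666.5 to 1824.5, or 1314 with counts halved and 1468 without thinning. With 1 library left out, 2 genes that had not passed changed sign: Cdkn1a was at -0.37 to 0.014 (above 0 without SAHA 3 and without Vehicle 3), and Tdpoz2 at -0.41 (without SAHA 3) to 1.39; the cause was not tested. Over the 189 named genes, 2999 refits gave 2942 values with the same direction and side of the threshold, 15 that no longer passed and 39 that newly passed.

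SAHA and Vehicle libraries share replicate numbers, but same-numbered libraries did not deviate together in every pair (r of -0.03, 0.14 and 0.15 across genes, which are not independent), so the numbers were not taken as pairs. With the replicate number as a block, 3590 genes were higher and 2596 lower, and MERVL-int was at 5.98. Small changes may be missed with 3 libraries a group: 14 of 67 simulated 1.5-fold changes were recovered. That simulation changed few of its 13153 genes and fitted 6 libraries. The comparison itself used a fit of 12 libraries and 34.2% of genes passed, so the recovery there may differ.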

Other observations

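Among genes with clear levels in control embryos, falls outnumbered rises. Genes were grouped by their mean in the separate siControl libraries, which took no part in the comparison of SAHA with Vehicle. At 10 to 100 CPM 11.7% of 6579 genes rose and 25.03% fell, and at 100 CPM or more 10.3% of 1936 genes rose and 26.3% fell. Lower levels had more rises: at 0 to 1 CPM 41.8% of 3435 genes rose and 0.90% fell.

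In 3 families chosen after their values were seen, falls were frequent beside the 14% of all genes tested and the 25.03% of those at 10 to 100 CPM in siControl. Sorting nexins, which shape endosomes, fell in 11 of 28 tested, autophagy genes named Atg in 7 of 18, and actin-related Actr genes in 5 of 10.

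Among protein-coding genes at 1 CPM or more in siControl, those spanning at least 150 kb rose more often than the class as a whole, 27.4% of 1021 against 15.3% of 12147, and 14.6% of them fell against 18.7%.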
